A study of Mus musculus with 2 samples.

Results

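The genes described here are 10 targets of the transcription factor NRF2 that serve antioxidant defence and the reduction of quinones and carbonyls: Nqo1, Cbr3, Gclc, Gclm, Gsr, Slc7a11, Txnrd1, Srxn1, Hmox1 and Osgin1. The genes were chosen with earlier results of these data known. Their probes were taken by name, as every non-control probe annotated with one of these symbols or a synonym on both arrays. All 10 had a probe, 12 probes in all, among 22803 named genes on an array of 39429 probes. Liver RNA of C57BL/6 mice was hybridised to 2 Agilent 2-colour arrays, 1 for AID transgenic and 1 for wild-type mice. On each array the Cy5 channel held RNA of a liver from mice given thioacetamide in the drinking water for 6 months, and the Cy3 channel that of a liver without treatment, matched for genotype. The 4 livers are therefore AID transgenic with thioacetamide, AID transgenic untreated, wild-type with thioacetamide and wild-type untreated. The study compared how the livers of these genotypes responded to thioacetamide, a hepatotoxin that liver enzymes activate to reactive metabolites. The sources used here do not give the promoter of the AID transgene, the age or sex of the mice, or whether RNA was pooled.

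NRF2, encoded by Nfe2l2, is held at low levels by KEAP1, which presents it for degradation. Electrophiles and oxidants modify cysteines of KEAP1, NRF2 then accumulates, pairs with a small MAF protein and binds antioxidant response elements in the promoters and enhancers of its targets. In liver these targets include enzymes that make and recycle glutathione and thioredoxin, reduce quinones and carbonyls, and degrade heme.

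Some promoter windows of these genes hold letters like those of an antioxidant response element, and they are shown here because the genes that carry them took different treatment ratios. RefSeq sequence of GRCm38.p6 was matched by symbol for 7 of the 10 genes, in 9 windows of 250 bases that end just before an annotated start. The core element TGACNNNGC, searched on both strands, was found in 2 of the 9 windows, 1 of Gclm and 1 of Txnrd1, and in 10.2% of 32851 windows of the same length. The letters TGANTCAGC, which overlap that core where N is C and hold the AP-1 site TGANTCA, were found in the windows of Osgin1 and Srxn1 and in 1.02% of all windows. This second search was added after the sequences had been seen. TGANTCA alone was also found in 2 of the 9 windows, again those of Osgin1 and Srxn1, and in 6.75% of all windows. Capitals mark TGACNNNGC or TGANTCAGC on either strand, and each window reads 5′ to 3′ on the strand of the gene.
Osgin1 (chr8:119436897-119437146, plus strand): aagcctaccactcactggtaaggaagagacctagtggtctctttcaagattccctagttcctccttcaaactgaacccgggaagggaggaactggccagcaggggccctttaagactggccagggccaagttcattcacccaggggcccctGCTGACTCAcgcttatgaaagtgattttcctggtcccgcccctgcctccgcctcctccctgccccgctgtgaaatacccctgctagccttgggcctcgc
Srxn1 (chr2:152105274-152105523, plus strand): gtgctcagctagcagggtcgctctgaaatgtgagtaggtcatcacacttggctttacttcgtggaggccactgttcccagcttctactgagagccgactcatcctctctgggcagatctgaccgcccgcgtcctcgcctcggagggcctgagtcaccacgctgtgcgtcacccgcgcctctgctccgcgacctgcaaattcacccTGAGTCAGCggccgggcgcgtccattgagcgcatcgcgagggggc
Txnrd1 (chr10:82858956-82859205, plus strand): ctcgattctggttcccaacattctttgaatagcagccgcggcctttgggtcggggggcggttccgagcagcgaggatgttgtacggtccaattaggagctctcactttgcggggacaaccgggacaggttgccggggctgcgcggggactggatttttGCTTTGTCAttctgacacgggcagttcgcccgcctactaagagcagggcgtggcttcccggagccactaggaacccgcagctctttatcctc
Gclm (chr3:122245307-122245556, plus strand): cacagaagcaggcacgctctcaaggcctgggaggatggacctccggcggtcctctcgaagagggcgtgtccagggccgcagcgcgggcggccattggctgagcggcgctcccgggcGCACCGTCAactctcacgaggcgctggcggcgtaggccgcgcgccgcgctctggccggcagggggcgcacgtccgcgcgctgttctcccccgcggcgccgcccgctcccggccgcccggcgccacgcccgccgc
The Srxn1 match lay 45 to 37 bases before the start and the Osgin1 match 99 to 91 bases before it. The Txnrd1 match lay 92 to 84 bases before 1 of the 3 starts of its windows, and the Gclm match 134 to 126 bases before the start. The windows of Nqo1, Cbr3 and Slc7a11 held neither set of letters. A match is a description of these windows, and binding was not measured.

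Between 53.9% and 68.8% of 43020 non-control spots were well above background in each channel. Sex-linked transcripts were not alike in the wild-type livers. There Xist was at least 6.36-fold higher in the thioacetamide liver than in the untreated liver, and the Y-linked Ddx3y and Eif2s3y were at least 17.6-fold and 32.1-fold lower. On the AID transgenic array Ddx3y and Eif2s3y had log2 ratios of -0.11 and -0.05. Xist was well above background only in the wild-type thioacetamide liver, and Ddx3y and Eif2s3y in every liver but that one. This is the pattern of a female liver beside male ones, though the sex of the mice is not given. The wild-type treatment ratio, and each comparison that holds the wild-type thioacetamide liver, carries this difference, and its part in the values of the NRF2 targets was not tested. Of 5 hepatocyte markers measured, 2 on the AID transgenic array and 1 on the wild-type array were lower by 2-fold or more, and Alb, the albumin gene, had log2 ratios of 0.17 and 0.60. Summed levels of the 5 were 487690 in the thioacetamide and 629660 in the untreated AID transgenic liver, and 482810 and 618530 in the wild-type livers. In whole liver, fewer cells of a type and less RNA per cell cannot be told apart.

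With 1 array per genotype there is no replicate, so neither a test nor a p-value is given, and precision is limited by how few arrays there are. Thioacetamide RNA was in Cy5 and untreated RNA in Cy3 on both arrays, with no exchange of dyes. Dye and treatment therefore cannot be told apart in a treatment ratio, also where both arrays gave similar values. A gene was counted as higher or lower when its log2 value reached 1 in size, a 2-fold difference, and a probe was well above background in at least 1 channel that entered. Errors after ± come from the scanner software, for the log2 ratio it computed itself, and cover technical error within 1 spot. For a difference between arrays, the error is the root of the sum of both squared scanner errors, which takes them as independent. Levels are normalized intensities, which include an offset of 50, and are compared only within 1 probe, except in the summed levels of marker lists. Such a sum compares 1 list between livers and gives most weight to its brightest genes. Across 399 probes with 10 spots each, the SD between spots had a median of 0.07 for the log2 ratio on either array. For the log2 level of a channel this median was between 0.09 and 0.10. Where 2 levels are compared, the spread between spots is the root of the sum of both squared medians, between 0.139 and 0.145. Neither spread holds any difference between animals.

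Of the 9 genes measured, 5 were at least 2-fold higher in the thioacetamide than in the untreated liver on the AID transgenic array, and 5 on the wild-type array. No gene of the 9 was at least 2-fold lower on either array. Nqo1, Cbr3, Gclc, Srxn1 and Osgin1 were at 2-fold on both arrays, Txnrd1 was just under it, and Gclm, Gsr and the mean of the Hmox1 probes were not at it. Slc7a11 was not well above background in any channel. Among all measured genes, 1.21% were at least 2-fold higher on the AID transgenic array (203 of 16708) and 1.86% on the wild-type array (310 of 16673). The shares at least 2-fold lower were 0.946% and 1.64%. Both calls at once were seen for 0.627% of 16261 genes measured on both arrays. The median log2 ratio of the 9 genes was 1.11 on the AID transgenic and 1.38 on the wild-type array, beside 0.03 over all measured genes on each.

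**Figure D1:**
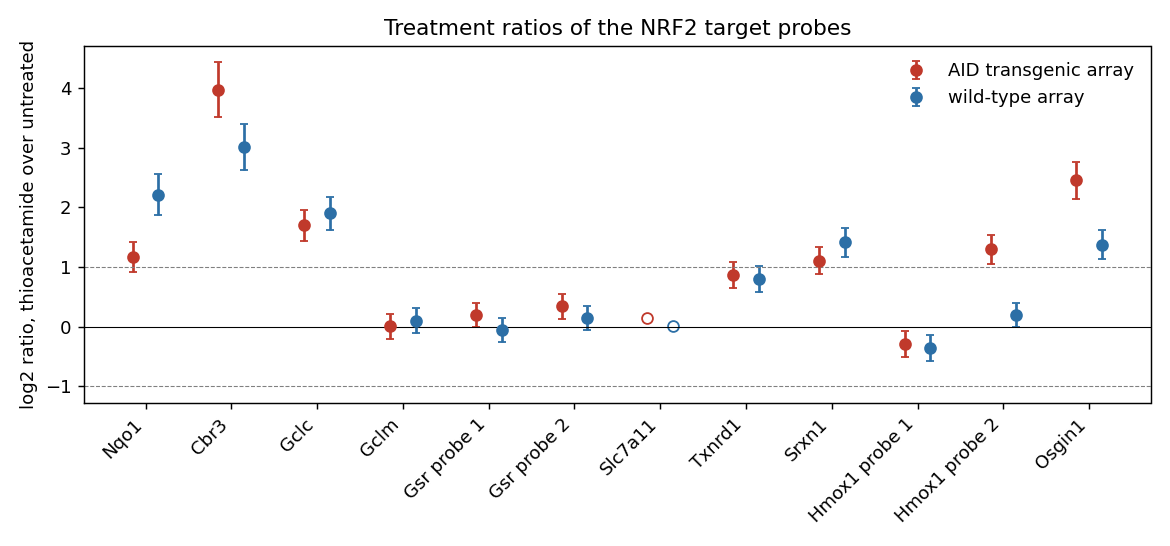
Log2 ratio of thioacetamide over untreated for each probe on the AID transgenic array (red) and the wild-type array (blue), with the scanner software's error of 1 spot as bars and dashed lines at 2-fold. Cbr3 was highest on both arrays at 3.98 and 3.02, the Hmox1 probes disagreed on the AID transgenic array, and open circles mark Slc7a11, which was not well above background in any channel.

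Both reductases of quinones and carbonyls were at least 2-fold higher on each array, Nqo1 with the larger ratio on the wild-type array and Cbr3 on the AID transgenic array. Nqo1 encodes NAD(P)H quinone dehydrogenase 1, which reduces quinones to hydroquinones by transfer of an electron pair. Its level was 413 in the thioacetamide and 184 in the untreated AID transgenic liver, and 778 in the thioacetamide and 168 in the untreated wild-type liver. Both thioacetamide livers were above both untreated livers, and the untreated livers differed by 0.13 on the log2 scale, less than the spread between spots. The log2 ratio was 1.17 ± 0.25 on the AID transgenic array, a 2.24-fold difference, and 2.21 ± 0.35 on the wild-type array, a 4.64-fold difference. With the scanner's processed signals, which hold no offset, the AID transgenic fold was 2.92 and the wild-type fold 8.20.

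Cbr3 encodes carbonyl reductase 3, an NADPH-dependent reductase of carbonyl compounds. Its level was 5425 in the thioacetamide and 344 in the untreated AID transgenic liver, and 2030.1 in the thioacetamide and 251 in the untreated wild-type liver. Every neighbouring pair in this order of 4 livers was further apart than the spread between spots. The log2 ratio was 3.98 ± 0.46 in the AID transgenic and 3.02 ± 0.38 in the wild-type comparison, which is 15.8-fold and 8.09-fold. It ranked 2 among all measured genes on the AID transgenic array and 20 on the wild-type array, counted from the highest ratio. With median centring in place of loess the folds were 25.0 and 12.6.

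Among the glutathione genes, the catalytic subunit of the synthesis enzyme differed from the modifier subunit and from the reductase. Gclc encodes the catalytic subunit of glutamate-cysteine ligase, the rate-limiting enzyme of glutathione synthesis, and Gclm its modifier subunit. Gclc had a level of 27772 in the thioacetamide and 8555 in the untreated AID transgenic liver, and of 28779 and 7705 in the wild-type livers. The thioacetamide livers differed from each other by less than the spread between spots, and both were above the untreated livers. Its log2 ratios were 1.70 ± 0.26 on the AID transgenic and 1.90 ± 0.27 on the wild-type array.

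Gclm had a level of 1187 in the thioacetamide and 1183 in the untreated AID transgenic liver, and of 1272 and 1184 in the wild-type livers. No neighbouring pair of these levels was further apart than the spread between spots. Its log2 ratios were 0.01 ± 0.20 and 0.10 ± 0.20, and the AID transgenic value was -0.01 with an offset of 0 and with the processed signals. With median centring the log2 ratios of Gclm were 0.67 on the AID transgenic and 0.77 on the wild-type array. The Gclm probe is placed by the files at chr3:121962174-121964809 of mm9, a span longer than its 60 bases, so its bases are split in the genome.

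Gsr encodes glutathione reductase, which returns oxidised glutathione to its reduced form. Its first probe, at base 2450 of the transcript, had a level of 2019 in the thioacetamide and 1761 in the untreated AID transgenic liver, and of 1633 and 1697 in the wild-type livers. Its second probe, at base 2525, had 6996 and 5527 in the AID transgenic livers and 6049 and 5446 in the wild-type livers. The AID transgenic thioacetamide liver was the highest of the 4 with either probe. The mean log2 ratio of both probes was 0.27 on the AID transgenic array, with an SD of 0.10 between probes, and 0.05 on the wild-type array, with an SD of 0.15.

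Slc7a11 encodes the cystine-glutamate exchanger that brings cystine into cells for glutathione synthesis. Its levels were 73.0 in the thioacetamide and 66.1 in the untreated AID transgenic liver, and 63.1 and 62.2 in the wild-type livers. As no channel was well above background, no ratio is read from them.

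**Figure D2:**
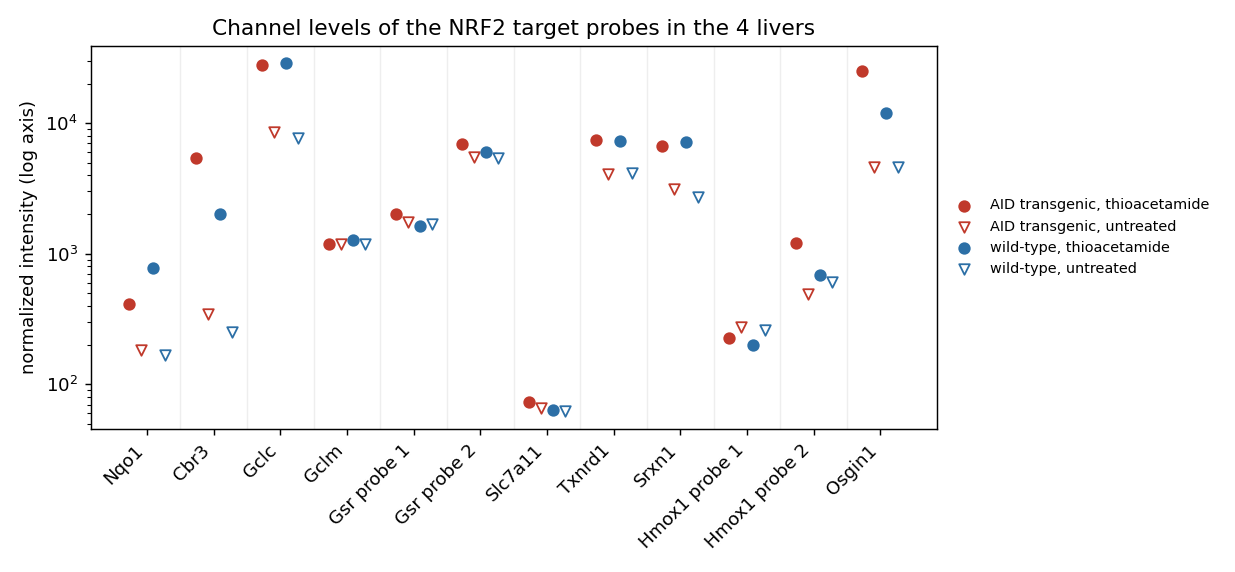
Normalized intensity on a log axis of each probe in the AID transgenic (red) and wild-type (blue) livers, with thioacetamide (filled circles) or untreated (open triangles). Levels are compared within a probe, and for Nqo1, Cbr3, Gclc, Srxn1, Txnrd1 and Osgin1 both circles lie above both triangles.

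The thioredoxin genes had similar ratios on both arrays. Txnrd1 encodes the cytosolic thioredoxin reductase, a selenoprotein that reduces thioredoxin with NADPH. Its level was 7407 in the thioacetamide and 4065 in the untreated AID transgenic liver, and 7247.5 and 4182 in the wild-type livers. The thioacetamide livers lay within the spread between spots of each other, as did the untreated ones. The log2 ratios were 0.87 ± 0.22 and 0.79 ± 0.22, just under 2-fold, and with median centring the folds were 2.95 and 2.84, against 1.82 and 1.73 with loess.

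Srxn1 encodes sulfiredoxin, which restores over-oxidised peroxiredoxins. Its level was 6744 in the thioacetamide and 3130.2 in the untreated AID transgenic liver, and 7214 and 2708 in the wild-type livers. The thioacetamide livers differed by less than the spread between spots, and the untreated AID transgenic liver was above the untreated wild-type liver by 0.21 on the log2 scale. The log2 ratios were 1.11 ± 0.23 on the AID transgenic array, just past 2-fold, and 1.41 ± 0.24 on the wild-type array.

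Osgin1 encodes oxidative stress induced growth inhibitor 1, a protein linked to growth arrest and cell death. Its level was 25316 in the thioacetamide and 4624 in the untreated AID transgenic liver, and 11954 and 4608 in the wild-type livers. The untreated livers differed by less than the spread between spots, and the AID transgenic thioacetamide liver was highest. The log2 ratios were 2.45 ± 0.31 on the AID transgenic and 1.38 ± 0.24 on the wild-type array, and the gene ranked 11 and 152 among all measured genes.

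Hmox1 encodes heme oxygenase 1, which opens heme to biliverdin, iron and carbon monoxide and is abundant in macrophages that take up red cells. Its 2 probes did not give the same direction, and the first 30 of the 60 bases of each are shown because the result depends on which is read.
Hmox1 probe 1, base 324 of the transcript (chr8:77620797-77620856, mm9): atagagcgcaacaagcagaacccagtctat
Hmox1 probe 2, base 1290 of the transcript (chr8:77624207-77624266, mm9): atggttgtaagcatccatgttgactgacca
Probe 1 had a level of 225 in the thioacetamide and 275 in the untreated AID transgenic liver, and of 202 and 259 in the wild-type livers. Both thioacetamide livers were below both untreated livers, with log2 ratios of -0.29 ± 0.21 and -0.36 ± 0.22. Probe 2 had a level of 1214 in the thioacetamide and 493 in the untreated AID transgenic liver, and of 693 and 603 in the wild-type livers. With this probe the log2 ratio was 1.30 ± 0.24 on the AID transgenic array and 0.20 ± 0.20 on the wild-type array. The mean of both probes was 0.50 on the AID transgenic array, with an SD of 1.13 between probes, and -0.08 on the wild-type array, with an SD of 0.40. With median centring this mean was 1.04 on the AID transgenic array, past 2-fold, and 0.46 on the wild-type array, where its sign turned.

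Macrophage markers differed between the arrays beside Hmox1. Of 8 measured, 2 were at least 2-fold higher in the thioacetamide liver on the AID transgenic array and 0 on the wild-type array, with medians of 0.78 and 0.08. Their summed level was 33136 in the thioacetamide and 16418 in the untreated AID transgenic liver, and 12524 and 11223 in the wild-type livers. Cd5l, a scavenger protein gene of Kupffer cells, had 1.48 ± 0.25 and 0.15 ± 0.20, the largest difference between arrays of the 8. The difference, AID transgenic minus wild-type, was above 0 for 6 of the 8 and ranged from -0.12 to 1.33, with a median of 0.75. It was at least 2-fold for 1 of them. All 8 were well above background in every channel, and their part in the Hmox1 values was not tested.

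**Figure D3:**
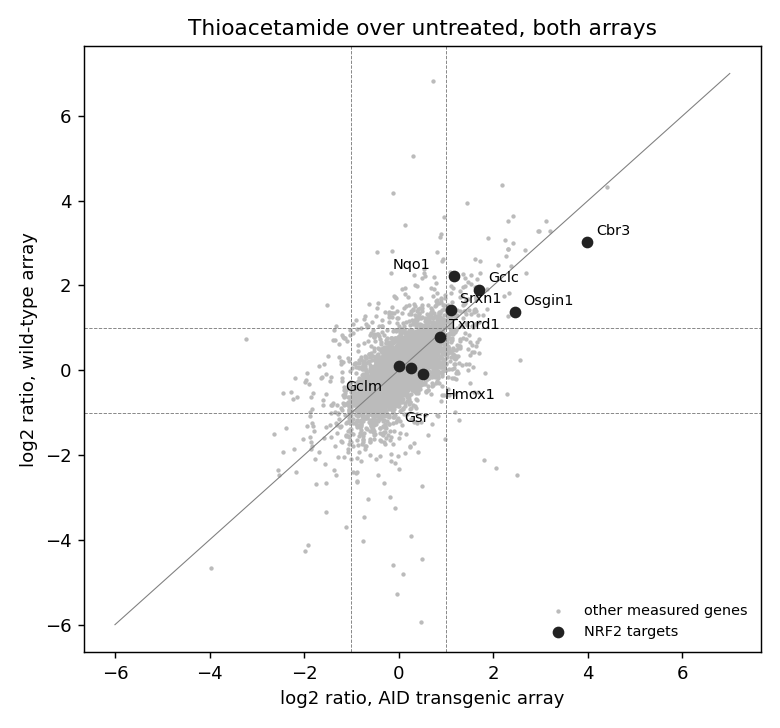
Log2 ratio of thioacetamide over untreated on the AID transgenic array (horizontal) against the wild-type array (vertical) for each gene measured on both, with the NRF2 targets in black, dashed lines at 2-fold and the line of equal ratios. Nqo1 lies above the line of equal ratios and Osgin1 and Cbr3 below it, while Gclc, Srxn1 and Txnrd1 lie closer to it.

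The difference between the treatment ratios, AID transgenic minus wild-type, was at least 1 in size for 2 of the 9 genes, Osgin1 upward and Nqo1 downward. In this difference 0.929% of all 17120 measured genes reached 2-fold upward and 1.05% downward. Osgin1 had a difference of 1.08 ± 0.39 and Nqo1 of -1.05 ± 0.43. Cbr3 was just inside 2-fold at 0.96 ± 0.60. Gclc and Srxn1 had -0.20 ± 0.38 and -0.31 ± 0.34, and Txnrd1 and Gclm had 0.07 ± 0.31 and -0.10 ± 0.29. The median of the 9 genes was 0.07, beside 0.00 over all measured genes. The second Hmox1 probe was past 2-fold in this difference, and the first had 0.07 ± 0.30.

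Between the thioacetamide livers, AID transgenic over wild-type, 2 of the 9 targets reached 2-fold upward and 0 downward. The background for this comparison was 0.731% higher and 0.761% lower. Cbr3 had a log2 value of 1.42, Osgin1 of 1.08 and Nqo1 of -0.92, and each of the other 6 genes lay between -0.10 and 0.48. Between the untreated livers 0 of the 9 genes were at 2-fold in either direction, beside 0.307% higher and 0.294% lower among all genes, with the highest value 0.46 for Cbr3 and the lowest -0.10 for Hmox1. These comparisons use the same 4 channels as the treatment ratios and are not independent of them. Between the thioacetamide livers, 4 of 8 macrophage markers were at least 2-fold higher in the AID transgenic one and 0 lower, with a median of 0.95. Between the untreated livers 1 of the 8 was higher and 0 lower, with a median of 0.12. That marker was Marco, a scavenger receptor gene named after its values were seen, at 2.42 between the thioacetamide and 2.54 between the untreated livers, so 1 of the 4 was also at 2-fold without treatment. Of 6 stellate cell markers, 2 were lower and 0 higher between the thioacetamide livers, with a median of -0.38. Without treatment, 1 of the 6 was higher in the AID transgenic liver and 0 lower, with a median of 0.25. The summed level of the 6 was 1630 in the thioacetamide and 2775 in the untreated AID transgenic liver, and 2877 and 1795 in the wild-type livers. In the difference of the treatment ratios, 3 of the 6 stellate cell markers were lower, with a median of -0.98. The 4 endothelial markers had summed levels of 9283 and 8815 in the AID transgenic and 7527 and 8133 in the wild-type livers, and the 6 cholangiocyte markers 778 and 941, and 1046 and 843, with thioacetamide given before untreated. The part of these cell markers in the values of Cbr3, Osgin1 and Nqo1 was not tested. Nor was that of the sex-linked transcripts that set the wild-type thioacetamide liver apart.

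Of the NRF2 regulators, Nfe2l2 itself was higher in both thioacetamide livers. Its level was 5367 in the thioacetamide and 1558 in the untreated AID transgenic liver, and 4571 and 1863 in the wild-type livers, with log2 ratios of 1.78 ± 0.27 and 1.29 ± 0.24. Keap1 had 0.06 ± 0.20 and 0.02 ± 0.20. Of the 12 regulators, 1 was at least 2-fold higher and 0 lower on each array, with medians of 0.08 on the AID transgenic and 0.12 on the wild-type array. The difference between arrays was at least 2-fold for 1 regulator, the small MAF gene Maff, at -1.08, which was named after its value was seen. Its log2 ratio was -0.94 ± 0.23 on the AID transgenic and 0.14 ± 0.21 on the wild-type array.

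Most genes on the lists of related genes were not at 2-fold. The lists do not hold every gene of these classes. Some Akr1c and Abcc genes left off them were at least 2-fold higher on both arrays, and others were not. Among 19 other quinone and carbonyl reductases, 1 was higher and 1 lower on the AID transgenic array, and 4 were higher and 0 lower on the wild-type array. Cbr1, the carbonyl reductase gene related to Cbr3, had 1.64 ± 0.26 and 1.72 ± 0.26. Ephx1, the microsomal epoxide hydrolase gene, had 0.79 and 1.07, with an SD between its probes of 0.59 and 0.29. Ptgr1, a reductase of prostaglandins and alkenals, had 0.55 ± 0.23 and 1.24 ± 0.26, and the aldose reductase-like gene Akr1b7 had 0.25 ± 0.36 and 1.32 ± 0.35, with neither untreated liver well above background. The lower gene was Por, the electron donor of cytochromes P450, at -1.03 ± 0.22 on the AID transgenic and -0.35 ± 0.21 on the wild-type array, and it was named after its value was seen.

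Of 15 measured genes of glutathione synthesis, transport and peroxidases, 1 was higher and 1 lower on the AID transgenic array, and 2 were higher and 2 lower on the wild-type array. Chac1, which degrades glutathione, had -1.88 ± 0.30 and -1.56 ± 0.28. The canalicular conjugate exporter gene Abcc2 had 1.01 ± 0.23 and 1.03 ± 0.23, the gamma-glutamylcyclotransferase gene Ggct 0.67 ± 0.21 and 1.32 ± 0.24, and the glyoxalase gene Glo1 -0.60 ± 0.21 and -1.17 ± 0.23. None of 14 genes of the thioredoxin and peroxiredoxin system was at 2-fold on either array, with ratios between -0.35 and 0.59 on the AID transgenic and between -0.47 and 0.59 on the wild-type array. None of the 4 superoxide dismutase and catalase genes was at 2-fold on either array. Of 11 genes of heme and iron handling, 2 were higher on the AID transgenic array and 1 on the wild-type array, with 0 lower. The ferritin heavy chain gene Fth1 had 1.39 ± 0.23 and 1.40 ± 0.24, and Slc40a1, the gene of the iron exporter ferroportin, 1.12 ± 0.23 and 0.74 ± 0.22.

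**Figure D4:**
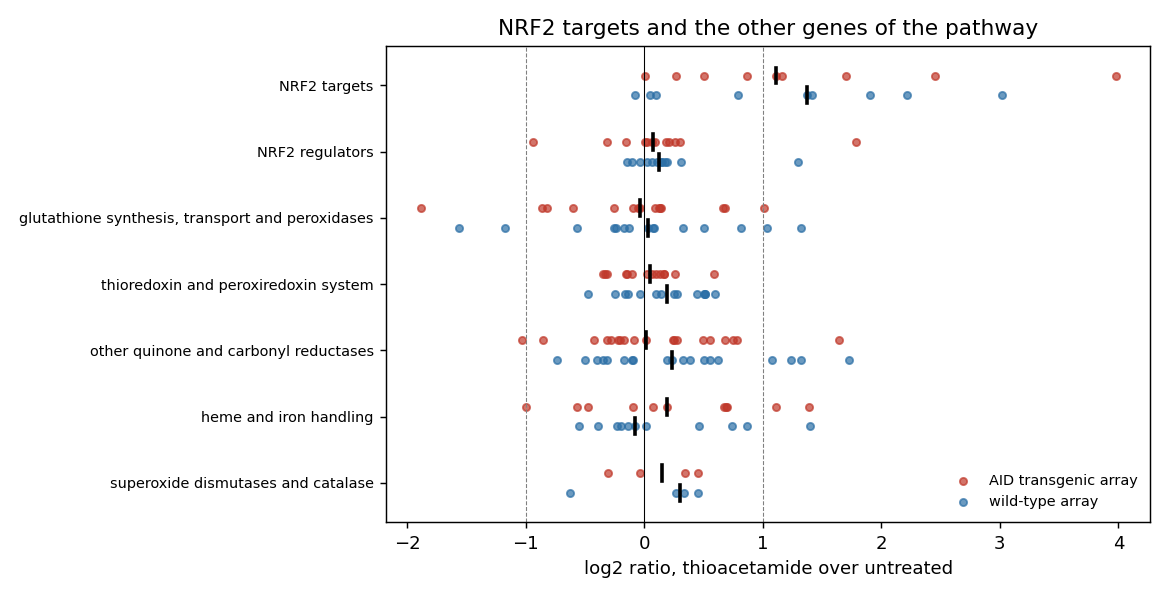
Log2 ratio of thioacetamide over untreated for each measured gene of the NRF2 targets and of 6 lists of related genes, on the AID transgenic array (red, upper row) and the wild-type array (blue, lower row), with the list median as a black bar and dashed lines at 2-fold. The medians of the NRF2 targets were 1.11 and 1.38, and those of the 6 related lists lay between -0.08 and 0.30.

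By Euclidean distance over the 2 arrays, the genes with treatment ratios most like those of Nqo1 were Tnfrsf10b, Cdc20 and Mpzl1. The search covered 10878 genes with a RefSeq symbol, well above background in every channel. On each array, all probes of such a gene had ratios of the same sign. The distances to Nqo1 were 0.13, 0.20 and 0.24 on the log2 scale. Genes nearest to Cbr3 were Ly6d, Car2 and Gm10639, at distances of 0.82, 0.99 and 1.04. No gene searched lay as close to Cbr3 as those named did to Nqo1.

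The scale of the ratios depends on the normalization. Over all measured genes, the median log2 ratio was 0.34 on the AID transgenic and 0.35 on the wild-type array with median centring, against 0.03 on each with loess, and the folds of Gclc, Srxn1, Osgin1, Gclm and Gsr were also over 1.5 times as large with it. Their AID transgenic and wild-type folds were 5.40 and 6.33 for Gclc, 3.48 and 4.34 for Srxn1, and 9.03 and 4.29 for Osgin1. They were 1.59 and 1.71 for Gclm, and 1.94 and 1.68 for Gsr, against 1.20 and 1.03 for Gsr with loess. Over all genes that setting gave 1358 higher and 53 lower on the AID transgenic array, beside 203 and 158 with loess, and 1729 higher and 102 lower on the wild-type array, beside 310 and 274. With the processed signals these counts were 1519 higher and 474 lower on the AID transgenic array, and 1577 and 606 on the wild-type array. With an offset of 0 they were 620 and 269, and 782 and 406. Nqo1, Cbr3, Gclc, Srxn1 and Osgin1 were at least 2-fold higher on both arrays under each of these 3 settings.

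**Figure D5:**
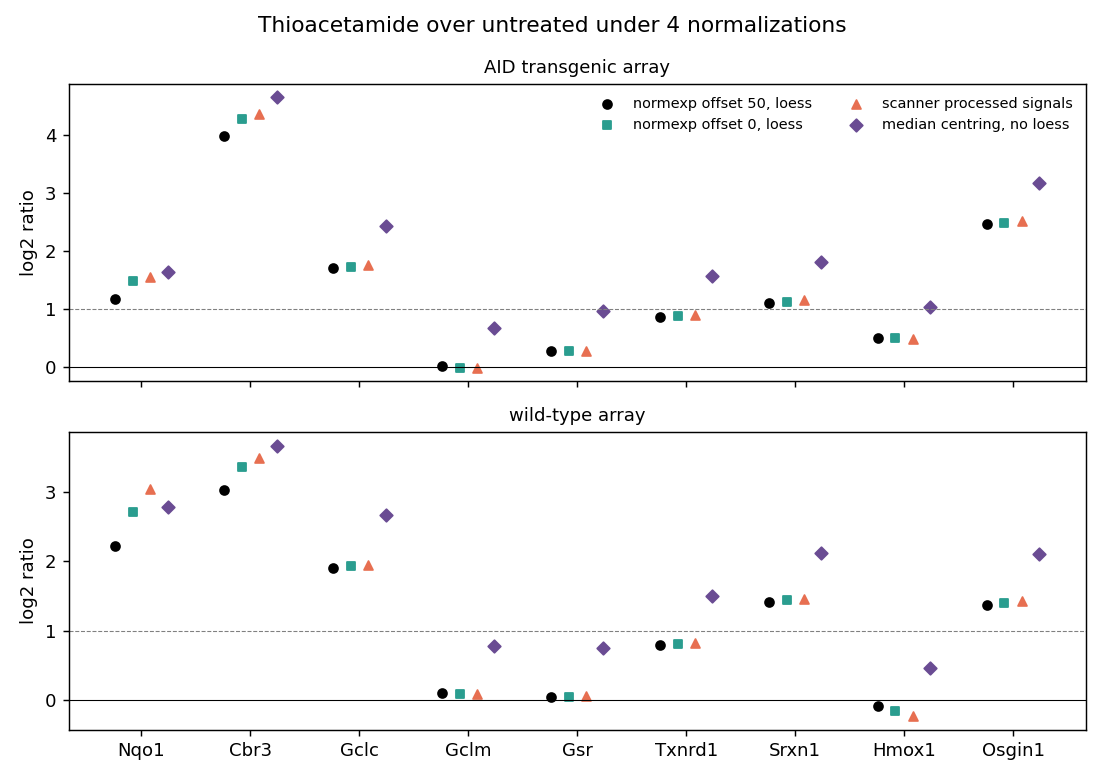
Log2 ratio of thioacetamide over untreated for the 9 measured NRF2 targets on the AID transgenic array (upper panel) and the wild-type array (lower panel) under 4 normalizations, with a dashed line at 2-fold. Median centring without loess gave the highest value for each gene except Nqo1 on the wild-type array, where the processed signals did.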

How the data were processed

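The 10 genes, the gene lists and the tests were chosen with earlier results of these data known. The authors deposited the scanner output of 2 arrays, and per the file headers spot mean signals and background medians are intensity values as scanned by Feature Extraction 10.7.3.1 (10.5.1.1 per the submitters' processing notes). Per the file headers, processed signals are intensity after detrending, background subtraction and dye normalization by that software. The deposited log10 ratio is red over green processed signal, and the deposited value table equalled it on all 44397 features of each array. Its medians were 0. The deposited error of a ratio is a score from the software's error model.

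Mean signals were corrected with normexp (offset 50) in limma 3.58.1 under R 4.3.3, normalized by loess within arrays and, for levels and genotype comparisons, by Aquantile. Control spots and 207 (AID transgenic) and 197 (wild-type) outlier spots were left out. Spots of a probe, then probes of a gene, were averaged. Of 39429 probes, 26055 were named by RefSeq accession (GRCm38.p6), 3195 by symbol and 930 by synonym, and 9249 without a match were left out of the gene counts. Genes named besides the 10 were chosen from each list's genes at 2-fold on either array, at most 4 with the largest size of the mean of both ratios, Nfe2l2, Keap1, Xist, Ddx3y, Eif2s3y and Alb, and the 3 genes nearest to Nqo1 and to Cbr3. Other genes that this rule allows are not reported here. Fold bounds use, for the dim liver, the higher of the gene's own level and the lowest level well above background. The steps were tested on simulated data that held spot noise but neither a dye effect nor differences between animals. That test therefore cannot speak to either. Tables were made with Python 3.11.15 and pandas 2.3.3.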

Additional observations from a re-analysis of the deposited data

Results flagged for a closer look

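Hmox1 had treatment ratios of opposite sign on the arrays, with a log2 ratio of 0.50 on the AID transgenic and -0.08 on the wild-type array as the mean of its 2 probes. With median centring these were 1.04 and 0.46, of the same sign. The difference was not tested, since each array is 1 sample. Its probes disagreed with an SD of 1.13 and 0.40, the second probe was above 0 on both arrays and the first below 0 on both.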

How the results depend on the processing

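Of 10 counts at 2-fold (higher and lower in 5 comparisons), each was equal to the reported count with an offset of 0, without a filter on dim probes, and when a gene had to be well above background in all channels. The background did move: with an offset of 0, 3.71% of all measured genes were higher on the AID transgenic and 4.69% on the wild-type array. The reported shares were 1.21% and 1.86%. Without the filter the shares were 0.89% and 1.36%, and with all channels above background 1.37% and 1.94%. The processed signals also gave 5 higher genes on each array, beside 9.09% and 9.46%. The count of higher genes on the AID transgenic array was 5, 6 with the brightest probe per gene and 7 with median centring. The shares of all measured genes higher there were 1.21%, 1.47% and 8.13%. On the wild-type array the count was 5, and 6 with median centring, beside 1.86% and 10.4% of all measured genes. In the difference of ratios, 2 genes were higher with the brightest probe, against 1, since Hmox1 was then read from its second probe. The share of all measured genes was 1.11%, against 0.929%. Between the thioacetamide livers, median centring gave 1 gene higher, against 2, as Osgin1 was then at 0.97. It gave 1 lower, as did the processed signals, against 0, which was Nqo1 at -1.01 under both. Shares of all measured genes there were 0.696% higher and 0.942% lower with median centring, against 0.731% and 0.761%. With the processed signals 2.7% were lower. The cause of these changes in count was not tested. No called gene changed its direction under any of the 6 alternatives. No paired analysis was possible because there is 1 array per genotype. Dim spots limit Nqo1 in untreated livers, the first Hmox1 probe and Slc7a11.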
